A study of Homo sapiens with 12 samples.

Results

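AP-1, EGR1, KLF6 and IER3 form a set of 10 stress- and growth-responsive genes that was followed across 4 treatments of SKM1 cells, an established human line derived from a myeloid leukaemia. The members were fixed by name: the FOS family (FOS, FOSB, FOSL1 and FOSL2), the JUN family (JUN, JUNB and JUND), the zinc finger factors EGR1 and KLF6, and IER3. They were chosen with earlier results of these data known, so their shares beside those of all genes describe the set and do not test it. All 10 were measured, each by 1 row of the table, among 28125 named genes. The 4 groups had 3 arrays each: untreated cells (NT), cells given APR-246 at its IC50 (APR), cells given 5-azacytidine at its IC50 (AZA), and cells given both (APR-AZA). All groups were the same line, with RNA taken at 18 h, so the values describe 1 line at 1 time, and no drug concentration is known here. 5-Azacytidine is a cytidine analogue that enters RNA and DNA and traps DNA methyltransferases, and APR-246 releases a compound that reacts with thiols of proteins and glutathione.

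AP-1 is a dimer of basic leucine zipper proteins. JUN proteins pair with each other or with FOS proteins, whereas FOS proteins need a JUN partner, and the dimer binds short palindromic DNA elements. Many of these genes are immediate early genes: signals through MAP kinases switch them on within minutes, without new protein synthesis, through factors already bound at their promoters such as SRF and CREB-related proteins, and their mRNAs are usually short-lived. In myeloid cells AP-1 and EGR1 are known for their part in monocytic differentiation and in inflammatory gene expression, and KLF6 is a zinc finger activator of macrophage and injury responses.

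Over all rows, r was 0.994 to 0.996 between arrays of 1 group and 0.978 to 0.984 between arrays with and without 5-azacytidine. Of 8 myeloid markers measured, all 8 lay above the median gene, and their mean log2 signal ran from 9.62 to 9.70 in NT and from 9.47 to 9.56 in AZA, with MPO, LYZ and CEBPA lower and SPI1, PTPRC and ANPEP higher in AZA. None of 4 T cell, 3 erythroid or 4 endothelial markers lay above the median gene, whereas 2 of 3 B cell, 3 of 4 epithelial and 2 of 4 fibroblast markers did. Of the 22 markers of other lineages, 0 had an adjusted p under 0.05 in AZA against NT (limma), against 20.9% of all genes. The epithelial adhesion gene EPCAM was at 9.67 in NT and 9.45 in AZA. In a bulk extract, fewer cells that express a gene and less RNA per cell cannot be told apart.

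Signals are log2 values normalized by the authors with RMA, and a change is a difference of log2 group means with its standard error from limma, a linear model fitted to all genes and all 12 arrays. A gene was called where its p-value, adjusted over all 28125 genes by the Benjamini-Hochberg method, was under 0.05. No label states that the 3 arrays of a group are 3 cultures, and the spread behind the p-values may be technical.

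The question of the comparison of AZA with NT was what 5-azacytidine alone changed. All 3 JUN genes, EGR1, KLF6 and FOS rose, while FOSB, FOSL1, FOSL2 and IER3 were not called. The changes of the 6 genes that rose ran from 1.56-fold for FOS to 4.0-fold for JUN. Called were 6 of 10 members, all higher, against 20.9% of all genes called and 9.79% called higher. The median change of the 10 members was 0.77 on the log2 scale, against 0.00 for all genes. In the same 6 members all 3 AZA arrays lay above all 3 NT arrays, against 15.1% of all genes.

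**Figure D1:**
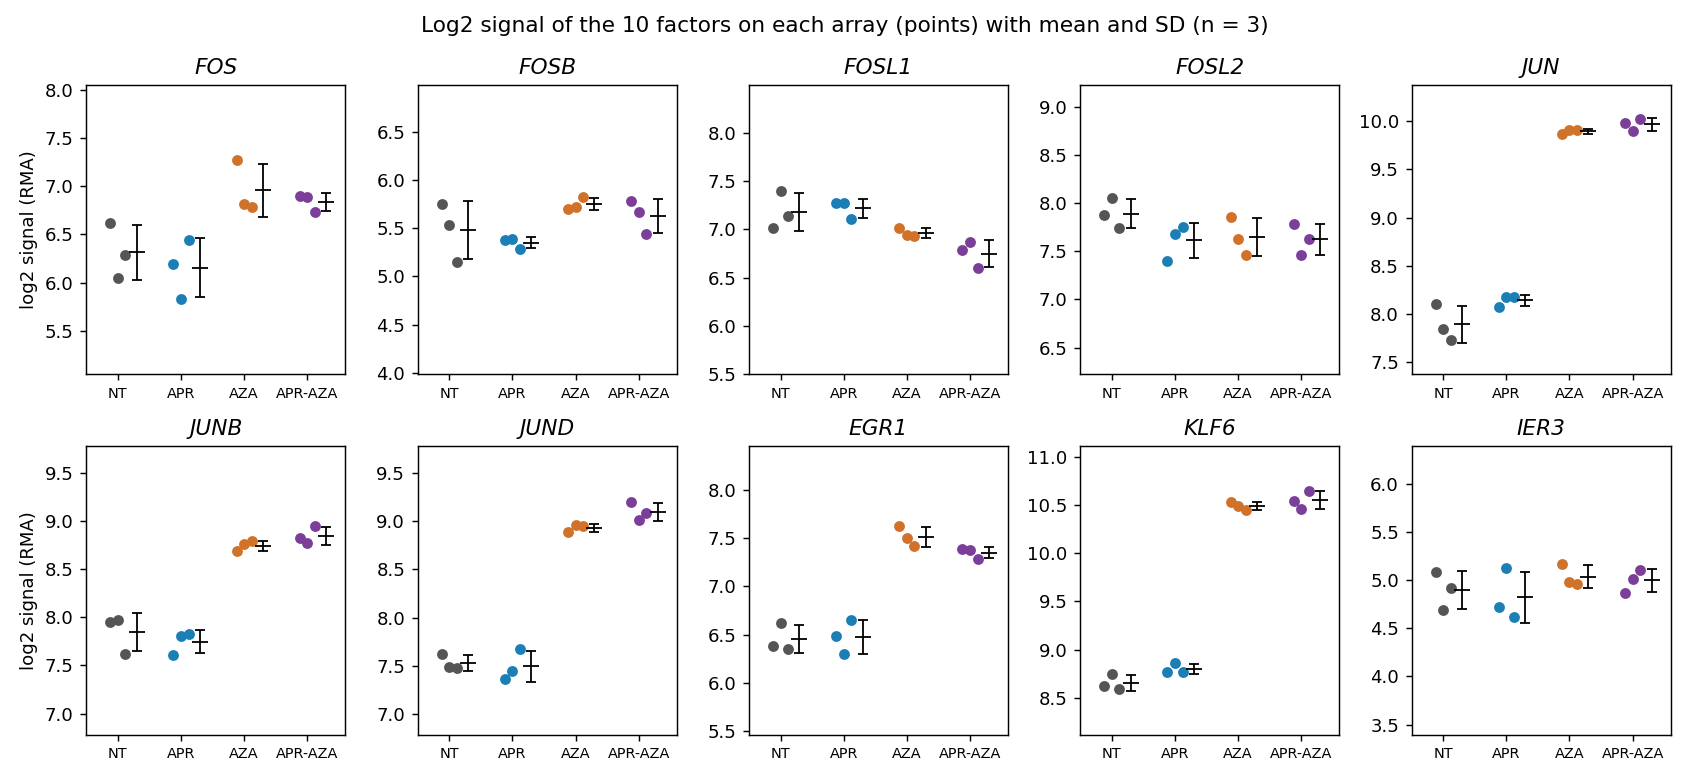
Log2 RMA signal of each factor on each array (points, 3 per group), with the group mean and SD beside them; every panel spans 3 log2 units, and levels are not to be compared between panels. JUN, JUNB, JUND, EGR1, KLF6 and FOS sit higher in both groups with 5-azacytidine than in both groups without it, whereas FOSB, FOSL2 and IER3 overlap.

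The JUN family carried the largest rise. JUN, the core AP-1 subunit and the target of the JUN N-terminal kinases, read 8.11, 7.84 and 7.73 on the 3 NT arrays and 9.86, 9.91 and 9.90 on the 3 AZA arrays. The groups lay far apart, and the AZA arrays spanned 0.046, against 0.375 in NT. Its log2 change was 2.0 ± 0.09 (SE, limma adjusted p = 9.86e-09), a larger increase than in all but 0.341% of genes. JUND, the subunit that resting cells usually hold, read 7.63, 7.49 and 7.47 in NT and 8.88, 8.96 and 8.96 in AZA. That is 2.65-fold higher (log2 1.40 ± 0.09 SE, limma adjusted p = 2.14e-07), again without overlap. JUNB, which can oppose JUN in growth control, read 7.95, 7.97 and 7.61 in NT and 8.68, 8.76 and 8.79 in AZA. Its change of 0.90 ± 0.10 (log2, SE, limma adjusted p = 3.13e-05) made it 1.86-fold higher, the smallest rise of the 3 JUN genes.

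KLF6 and EGR1 rose beside them. KLF6 read 8.63, 8.75 and 8.59 in NT and 10.53, 10.49 and 10.45 in AZA. The arrays spanned 0.159 in NT and 0.0833 in AZA, while the group means differed by 1.84 ± 0.08 (log2, SE, limma adjusted p = 4.09e-09), or 3.57-fold. EGR1, a zinc finger factor of monocytic differentiation, read 6.39, 6.63 and 6.35 in NT and 7.63, 7.50 and 7.42 in AZA. It was 2.08-fold higher (log2 1.06 ± 0.11 SE, limma adjusted p = 7.98e-06), with every AZA array above every NT array.

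Of the FOS family, FOS alone was called. FOS, the partner that forms the classical heterodimer with JUN, read 6.61, 6.04 and 6.28 in NT and 7.27, 6.81 and 6.79 in AZA. All AZA arrays were above all NT arrays, but the NT arrays spanned 0.569, and the change of 0.64 ± 0.18 (log2, SE, limma adjusted p = 0.0192) depended on single arrays. FOS was no longer called when NT replicate 2 (adjusted p = 0.091), NT replicate 3 (0.057) or AZA replicate 1 (0.0919) was left out, nor without variance moderation (0.0698). The adjusted p of FOS ranged from 0.00813 to 0.0919 over the alternatives that compared AZA with NT. FOSB, a close relative of FOS, stood at 0.27 ± 0.13, FOSL1 at -0.22 ± 0.11 and FOSL2 at -0.24 ± 0.13 (log2, SE), with adjusted p of 0.207, 0.191 and 0.261. FOSL1 and FOSL2 lack the strong activation domain of FOS. FOSB passed the threshold without NT replicate 1 (adjusted p = 0.044). IER3, a stress-induced regulator of cell survival, stood at 0.14 ± 0.14 (adjusted p = 0.601), with overlapping arrays between 4.69 and 5.08 in NT and between 4.95 and 5.17 in AZA. All 10 members, IER3 included, passed the filter that removes the dimmest 30% of genes. IER3, at a mean of 4.94 over all arrays, was close to the array medians of 4.69 to 4.78, and RMA compresses dim signals.

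APR-AZA against APR asks again what 5-azacytidine changed, in cells that all had APR-246. Its group means come from arrays that did not enter the group means of AZA and NT. The spread behind the standard errors was estimated from the arrays of all groups together. The p-values and calls are therefore not independent of those in AZA against NT. The same 6 members rose and FOSL1 fell. JUN was 3.54-fold, KLF6 3.36-fold, JUND 3.04-fold, JUNB 2.14-fold, EGR1 1.83-fold and FOS 1.61-fold higher. The adjusted p-values of the first 5 lay between 6.67e-09 and 4.29e-05, and that of FOS was 0.0136. Called were 6 members higher and 1 lower, against 9.45% of all genes called higher and 11.2% called lower (20.7% in either direction).

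JUN read 8.08, 8.17 and 8.18 on the APR arrays and 9.98, 9.90 and 10.02 on the APR-AZA arrays. KLF6 read 8.77, 8.86 and 8.77 in APR and 10.54, 10.46 and 10.64 in APR-AZA. For both genes the lowest APR-AZA array was far above the highest APR array. JUND read 7.37, 7.44 and 7.67 in APR and 9.20, 9.01 and 9.09 in APR-AZA. JUNB read 7.61, 7.80 and 7.83 in APR and 8.82, 8.77 and 8.95 in APR-AZA, and EGR1 6.49, 6.30 and 6.65 in APR and 7.39, 7.38 and 7.28 in APR-AZA. None of these groups overlapped; in this comparison all 3 arrays lay above in 16.4% and below in 17.8% of all genes.

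FOS read 6.20, 5.83 and 6.44 in APR and 6.90, 6.89 and 6.73 in APR-AZA, and its call was lost without APR replicate 2 (adjusted p = 0.0641) and without variance moderation (0.056), over a range of 0.00333 to 0.0641. FOSL1, whose product pairs with JUN in growth and invasion programmes, went the other way. It read 7.27, 7.27 and 7.11 in APR and 6.79, 6.87 and 6.60 in APR-AZA. All APR-AZA arrays lay below all APR arrays, and it was 1.38-fold lower (log2 -0.47 ± 0.11 SE, limma adjusted p = 0.0059). The change of FOSL1 was called under each of the 22 alternatives in this comparison. FOSB stood at 0.28 ± 0.13 (log2, SE, adjusted p = 0.186) with 3 APR-AZA arrays above 3 APR arrays, FOSL2 at 0.01 ± 0.13 and IER3 at 0.17 ± 0.14.

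**Figure D2:**
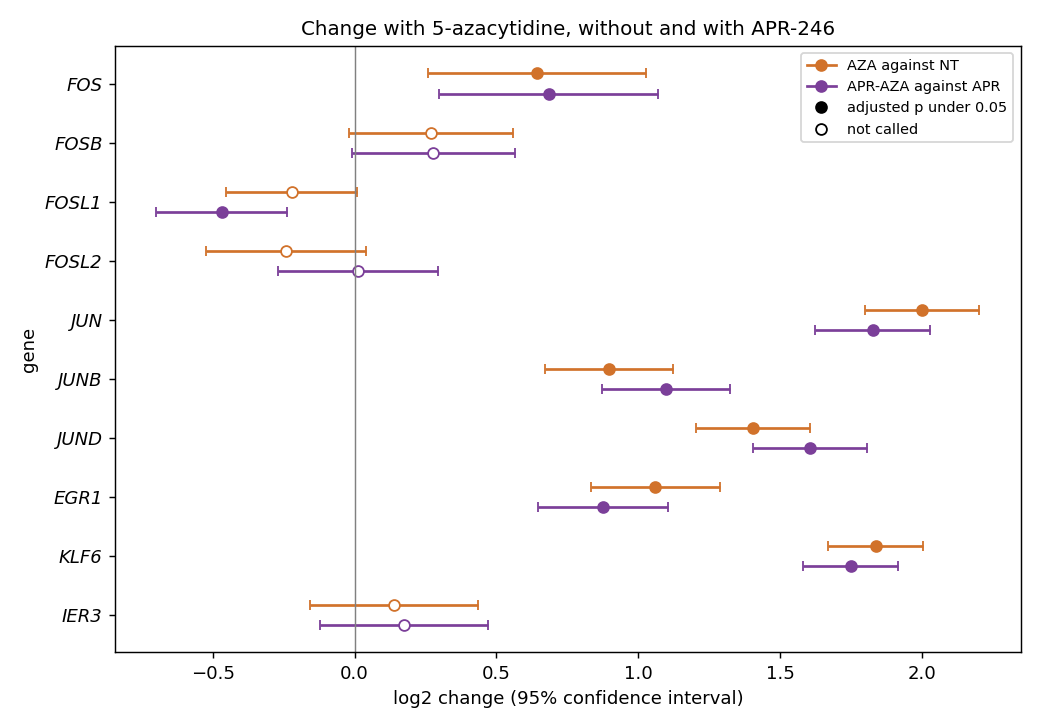
Log2 change with 5-azacytidine (points) and its 95% confidence interval, in cells without APR-246 (AZA against NT) and with it (APR-AZA against APR), 3 arrays per group; filled points have an adjusted p under 0.05. The intervals of the pair overlap for each gene, and the 3 JUN genes, KLF6, EGR1 and FOS lie to the right of 0 in both.

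Averaging the change with 5-azacytidine over cells without and with APR-246 uses all 12 arrays, and was chosen after the data were seen. On that average FOSL1 was lower by a log2 change of -0.34 ± 0.08 (SE, limma adjusted p = 0.00303), with all 3 APR-AZA arrays below all 3 APR arrays and the AZA arrays overlapping the NT arrays. FOSB stood at 0.27 ± 0.09 (adjusted p = 0.0451), and FOS at 0.66 ± 0.13 (adjusted p = 0.00105). FOSL2 and IER3 stood at -0.11 ± 0.09 and 0.16 ± 0.10 and were not called (adjusted p = 0.445 and 0.29). On this average 28.3% of all genes were called, 13.3% higher and 15% lower. The average change with APR-246 was called in 0 members and 0% of all genes, with JUN at 0.16 ± 0.07 (log2, SE, adjusted p = 0.991).

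The 250 bases before the annotated start are shown for JUN, KLF6, JUND and EGR1, the members with the largest rises in AZA against NT, to set out the elements known for inducible control next to those values. Promoters of 8 members were matched by symbol in the RefSeq table of GRCh38.p14; FOSL1 and IER3 were not matched. Sequences run 5′ to 3′ on the gene's strand, and capitals mark matches, on either strand, to TGACNTCA (a CRE-like octamer bound by JUN and ATF dimers), TGANTCA (the AP-1 heptamer), TGACGT (the core of the cAMP response element, contained in some TGACNTCA matches), the CArG box of SRF and GCGNGGGCG (an EGR site).
JUN, chr1:58784048-58784297, minus strand: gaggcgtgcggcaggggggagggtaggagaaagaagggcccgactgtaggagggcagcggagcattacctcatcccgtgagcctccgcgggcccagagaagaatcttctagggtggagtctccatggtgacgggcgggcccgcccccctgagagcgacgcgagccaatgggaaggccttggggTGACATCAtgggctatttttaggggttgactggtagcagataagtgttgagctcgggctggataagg
KLF6, chr10:3785210-3785459, minus strand: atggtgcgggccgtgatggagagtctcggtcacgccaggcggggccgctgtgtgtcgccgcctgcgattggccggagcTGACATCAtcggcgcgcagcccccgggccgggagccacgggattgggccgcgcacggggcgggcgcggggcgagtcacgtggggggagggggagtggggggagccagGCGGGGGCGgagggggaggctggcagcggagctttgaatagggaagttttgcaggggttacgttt
JUND, chr19:18281623-18281872, minus strand: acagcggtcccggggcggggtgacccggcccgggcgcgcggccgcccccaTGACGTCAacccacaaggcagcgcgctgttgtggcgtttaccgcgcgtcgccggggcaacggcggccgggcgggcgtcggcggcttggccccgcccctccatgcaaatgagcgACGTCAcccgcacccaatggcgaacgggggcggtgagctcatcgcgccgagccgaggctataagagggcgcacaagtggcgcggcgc
EGR1, chr5:138465229-138465478, plus strand: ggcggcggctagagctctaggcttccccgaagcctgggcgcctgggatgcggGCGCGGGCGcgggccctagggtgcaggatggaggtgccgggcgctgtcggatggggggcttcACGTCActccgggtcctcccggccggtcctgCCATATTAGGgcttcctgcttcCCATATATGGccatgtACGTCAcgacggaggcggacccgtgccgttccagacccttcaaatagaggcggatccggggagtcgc

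JUN and KLF6 held the same octamer, TGACATCA, 67 to 60 bases before the start of JUN and 172 to 165 bases before that of KLF6. JUND held the octamer TGACGTCA 200 to 193 bases before its start, and a further TGACGT on the opposite strand. These were the 3 of 8 members with TGACNTCA, which occurs in 6.87% of 35116 promoter windows of this length. EGR1 alone held CArG boxes, CCATATTAGG and CCATATATGG, against 1.16% of windows, and it held TGACGT at 2 places. TGACGT was found in 5 members (FOS, FOSB, FOSL2, JUND and EGR1) and in 7.1% of windows. FOSL2, which was not called, held TGACGT as FOS did, and JUNB, which rose, held none of the capitalised motifs. GCGNGGGCG was found in EGR1 and KLF6 and in 8.41% of windows, and TGANTCA in 0 of 8 members and 6.57% of windows. The GC box GGGCGG, left in lower case because it is common, was found in 6 of 8 members and 42.6% of windows. These matches describe letters in a window, and no binding was measured. Elements further upstream were not searched, so a motif missing here may lie outside the window.

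**Figure D3:**
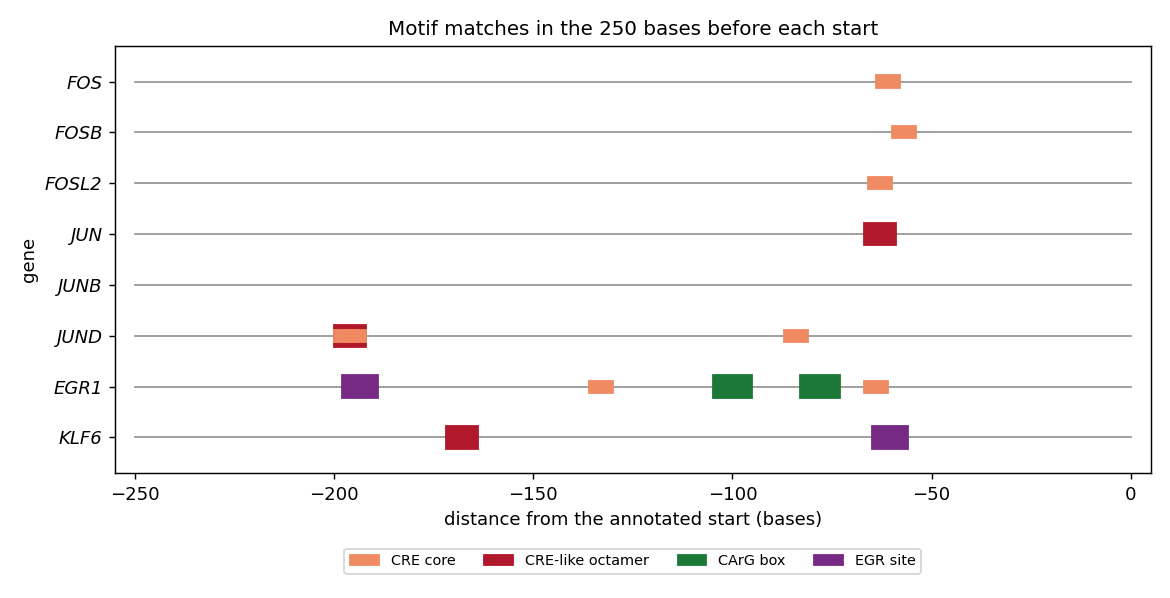
Position of motif matches in the 250 bases before the annotated start of 8 of the factors, in bases from the start (0); boxes mark the CRE core (TGACGT), the CRE-like octamer (TGACNTCA), the CArG box and the EGR site. The octamer is found in JUN, JUND and KLF6, the CArG boxes in EGR1, and JUNB has no match.

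The comparison of APR with NT asked what APR-246 alone changed in these factors. No member was called. JUN was 0.25 ± 0.09 higher (log2, SE, adjusted p = 1), with a 95% confidence interval of 0.05 to 0.45, and its APR arrays overlapped the NT arrays through NT replicate 1. KLF6 was 0.15 ± 0.08 higher (log2, SE), with all 3 APR arrays, at 8.77 to 8.86, above all 3 NT arrays, at 8.59 to 8.75, against 3.44% of all genes (4.04% had all 3 below, and 0 members). FOSL2 stood at -0.28 ± 0.13, with 7.88, 8.05 and 7.75 in NT and 7.40, 7.68 and 7.75 in APR. The other 7 members lay between -0.16 and 0.03. limma called 0 of 10 members and 0.00356% of all genes; at an unadjusted p under 0.05 there was 1 member, JUN, against 3.89% of all genes, and an unmoderated linear model also called 0 members. The intervals limit any change of JUND to between -0.23 and 0.17 and of EGR1 to between -0.21 and 0.25.

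APR-AZA against AZA asked the same of APR-246 in cells that also had 5-azacytidine. Its group means come from arrays that did not enter the group means of APR and NT, but the estimate of the spread was shared. limma called 0 of 10 members and 0% of all genes, with 0 members at an unadjusted p under 0.05 against 4.69% of all genes, and 0 members with an unmoderated linear model. JUND was 0.17 ± 0.09 higher with all 3 APR-AZA arrays above all 3 AZA arrays, against 5.8% of all genes. FOSL1 and EGR1 stood at -0.21 ± 0.11 and -0.16 ± 0.11 with all 3 arrays below, against 5.77% of all genes. JUN stood at 0.07 ± 0.09, KLF6 at 0.06 ± 0.08, and FOS at -0.12 ± 0.18 (log2, SE). JUNB stood at 0.10 ± 0.10, FOSB at -0.12 ± 0.13, FOSL2 at -0.03 ± 0.13 and IER3 at -0.04 ± 0.14. The 95% confidence interval of JUN ran from -0.13 to 0.27, so a change as large as that with 5-azacytidine lies outside it.

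**Figure D4:**
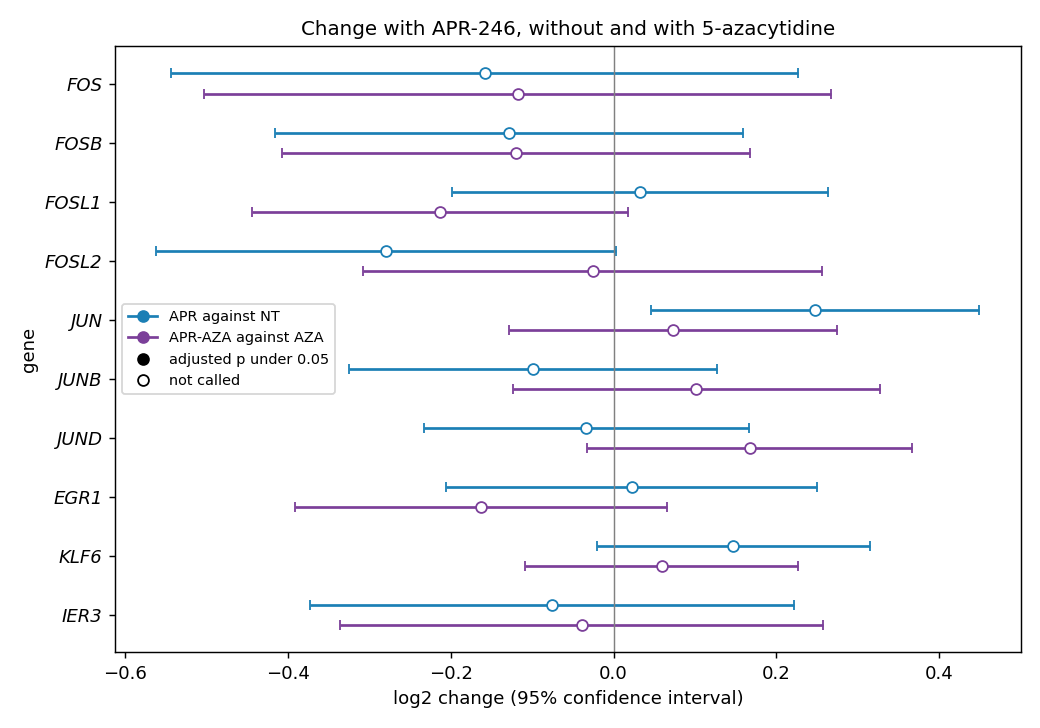
Log2 change with APR-246 (points) and its 95% confidence interval, in cells without 5-azacytidine (APR against NT) and with it (APR-AZA against AZA), 3 arrays per group; open points are not called. All 20 points lie between -0.28 and 0.25 on the log2 scale, and of the intervals only that of JUN in APR against NT leaves out 0.

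Both drugs together against NT gave 5 members called higher and 1 lower, against 10.4% and 11.9% of all genes (22.3% in either direction). This comparison shares its arrays with those above and is not independent of them. JUN was 4.20-fold, KLF6 3.72-fold, JUND 2.97-fold, JUNB 2.0-fold and EGR1 1.86-fold higher, with adjusted p between 2.73e-09 and 3.02e-05. FOSL1 was 1.35-fold lower (log2 -0.43 ± 0.11 SE, limma adjusted p = 0.0087), with 7.02, 7.40 and 7.14 in NT and 6.79, 6.87 and 6.60 in APR-AZA. FOSB stood at 0.15 ± 0.13, FOSL2 at -0.27 ± 0.13 and IER3 at 0.10 ± 0.14 (log2, SE), and none of them was called. FOS stood at 0.53 ± 0.18 (log2, SE, limma adjusted p = 0.0511). All 3 of its APR-AZA arrays lay above all 3 NT arrays, as in 16.9% of all genes. FOS passed the threshold in 9 of 22 alternatives (range 0.0187 to 0.201). Among them were runs without NT replicate 1 (0.0187), AZA replicate 1 (0.0343), APR replicate 2 (0.0326) or APR replicate 3 (0.0385).

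Whether the change with both drugs departed from the sum of the changes with each was tested for every gene. limma called 0 of 10 members and 0% of all genes, and at an unadjusted p under 0.05 there were 0 members against 3.52% of all genes. An unmoderated linear model called 0 members as well. The departures ran from -0.25 ± 0.15 for FOSL1 to 0.25 ± 0.18 for FOSL2 (log2, SE). For JUN the departure was -0.17 ± 0.13 with a 95% confidence interval of -0.46 to 0.11, and for KLF6 -0.09 ± 0.11 with an interval of -0.33 to 0.15. JUNB and JUND both stood at 0.20, with standard errors of 0.15 and 0.13. EGR1 stood at -0.18 ± 0.15, FOS at 0.04 ± 0.25, FOSB at 0.01 ± 0.19 and IER3 at 0.04 ± 0.19. The intervals give the departures that these values allow. Departures too small to be called with 3 arrays per group could have been missed. FOSL1 was called in APR-AZA against APR and not in AZA against NT, and its departure was not called (adjusted p = 1), so a difference between these changes was not shown.

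Genes around the 10 members were read from 8 lists of partners, relatives, upstream factors and targets, with 97 of 107 entries measured. Like the members, the lists were chosen with earlier results of these data known. Of the 97 genes, 33 were called higher and 11 lower with AZA, against 9.79% of all genes called higher and 11.1% called lower. With APR-AZA against APR the counts were 32 and 12, against 9.45% and 11.2%. In both comparisons the genes called lower were near the share of all genes.

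Partners of AP-1 outside the FOS and JUN families rose in 5 of 9 genes and fell in 1 (9.79% higher and 11.1% lower over all genes), with a median change of 0.40 on the log2 scale against 0.00 for all genes. ATF3, a stress-induced repressor and activator, was 3.48-fold higher (log2 1.80 ± 0.31 SE), JDP2, a repressive JUN partner, 2.27-fold, and the small MAF proteins MAFG and MAFF 2.07-fold and 1.86-fold. BATF, an AP-1 factor of lymphocytes, named after its value was seen, was 1.43-fold lower (adjusted p = 0.00613).

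Of 16 other KLF factors 7 rose and 1 fell, against 9.79% and 11.1% of all genes, with a median of 0.15. KLF13 was 2.06-fold, KLF9, a glucocorticoid-responsive repressor, 1.78-fold and KLF4, a factor of monocytic differentiation, 1.68-fold higher, and KLF5 was 1.43-fold lower. In APR-AZA against APR 4 of the 16 rose and 1 fell, against 9.45% and 11.2% of all genes. The gene that fell there was KLF7 (log2 -0.47 ± 0.13 SE, limma adjusted p = 0.0178). KLF5 was not called there (log2 -0.28 ± 0.10 SE, limma adjusted p = 0.0721). Of 7 EGR, NR4A and NAB genes 1 rose, a share near the 9.79% of all genes, with a median of 0.18. It was the orphan nuclear receptor NR4A3 (1.55-fold, log2 0.63 ± 0.09 SE), and NR4A2 stood at 0.34 ± 0.15 (adjusted p = 0.135). In APR-AZA against APR the 1 gene of this list called was NR4A2 (log2 0.48 ± 0.15 SE, limma adjusted p = 0.034), against 9.45% of all genes called higher. There NR4A3 stood at 0.26 ± 0.09 (limma adjusted p = 0.0747).

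Among 17 other immediate early genes, 9 were called higher and 0 lower, against 9.79% and 11.1% of all genes, with a median of 0.54. BTG1, an antiproliferative factor, was 3.68-fold, PHLDA1 3.03-fold, the kinase SGK1 2.90-fold and IER2 1.83-fold higher. This list overlaps in kind with the members, which were chosen with earlier results of these data known.

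Upstream genes were called in both directions. Of 11 SRF- and CREB-side factors 3 rose and 2 fell, against 9.79% and 11.1% of all genes, with a median of 0.02. The CREB coactivators CRTC2 and CRTC3 were 1.55-fold and 1.32-fold higher and CREM, a CREB relative, 1.36-fold higher, while MRTFA, a coactivator of SRF, was 1.52-fold lower. SRF, named after its value was seen, was 1.23-fold lower (limma adjusted p = 0.0064). Of 13 MAP kinases and kinases upstream of them 1 rose and 3 fell, against 9.79% and 11.1% of all genes, with a median of -0.06. MAP2K5, of the ERK5 branch, was 1.46-fold higher, and MAP2K6 and MAP2K3, which activate p38, and MAP3K5, a kinase of oxidative stress, were 1.86-fold, 1.37-fold and 1.34-fold lower. MAP2K3 (adjusted p = 0.0388) lost its call without APR-AZA replicate 1 (0.0525), NT replicates 1, 2 or 3 (0.0593, 0.146 and 0.0609) or AZA replicates 1 or 2 (0.143 and 0.121), each left out alone, and without moderation (0.0968). MAP3K5 (adjusted p = 0.0137) lost it without NT replicate 3 (0.0628) or AZA replicate 3 (0.0575). In APR-AZA against APR the counts were 2 higher and 1 lower, against 9.45% and 11.2% of all genes. MAP3K5 fell and MAP2K5 and MAP2K1 rose, while MAP2K6 (limma adjusted p = 0.348) and MAP2K3 (0.14) were not called. Kinase activity and phosphorylation were not measured.

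Genes of AP-1 protein turnover rose in 4 of 8 and fell in 1, against 9.79% and 11.1% of all genes, with a median of 0.23. The pseudokinase TRIB1, an adaptor of the ubiquitin ligase COP1, was 3.47-fold higher (log2 1.79 ± 0.09 SE), and COP1, ITCH and GSK3B were 1.47-fold, 1.33-fold and 1.29-fold higher. CUL4A, a cullin of the same ligase family, named after its value was seen, was 1.29-fold lower. JUN protein was not measured.

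Of 16 known targets of AP-1 and EGR1, 3 rose and 3 fell, against 9.79% and 11.1% of all genes, with a median of -0.01. The neutrophil chemokine CXCL8 was 9.36-fold, the adhesion molecule ICAM1 3.42-fold and the urokinase receptor PLAUR 1.82-fold higher. F3, tissue factor and a textbook EGR1 target, was 2.92-fold lower (log2 -1.55 ± 0.11 SE, limma adjusted p = 5.09e-07). The metalloproteinase gene MMP9, named after its value was seen, stood at -0.13 ± 0.10 (log2, SE, limma adjusted p = 0.473). In APR-AZA against APR it was called lower (log2 -0.33 ± 0.10 SE, limma adjusted p = 0.0287). There 3 of the targets rose and 4 fell, against 9.45% and 11.2% of all genes. With APR-246, in either background, 0 of the 97 list genes were called by limma. At an unadjusted limma p under 0.05 there were 4 (APR against NT) and 2 (APR-AZA against AZA), against 3.89% and 4.69% of all genes. The changes of the 97 genes lay between -0.35 and 0.42 and between -0.34 and 0.62.

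**Figure D5:**
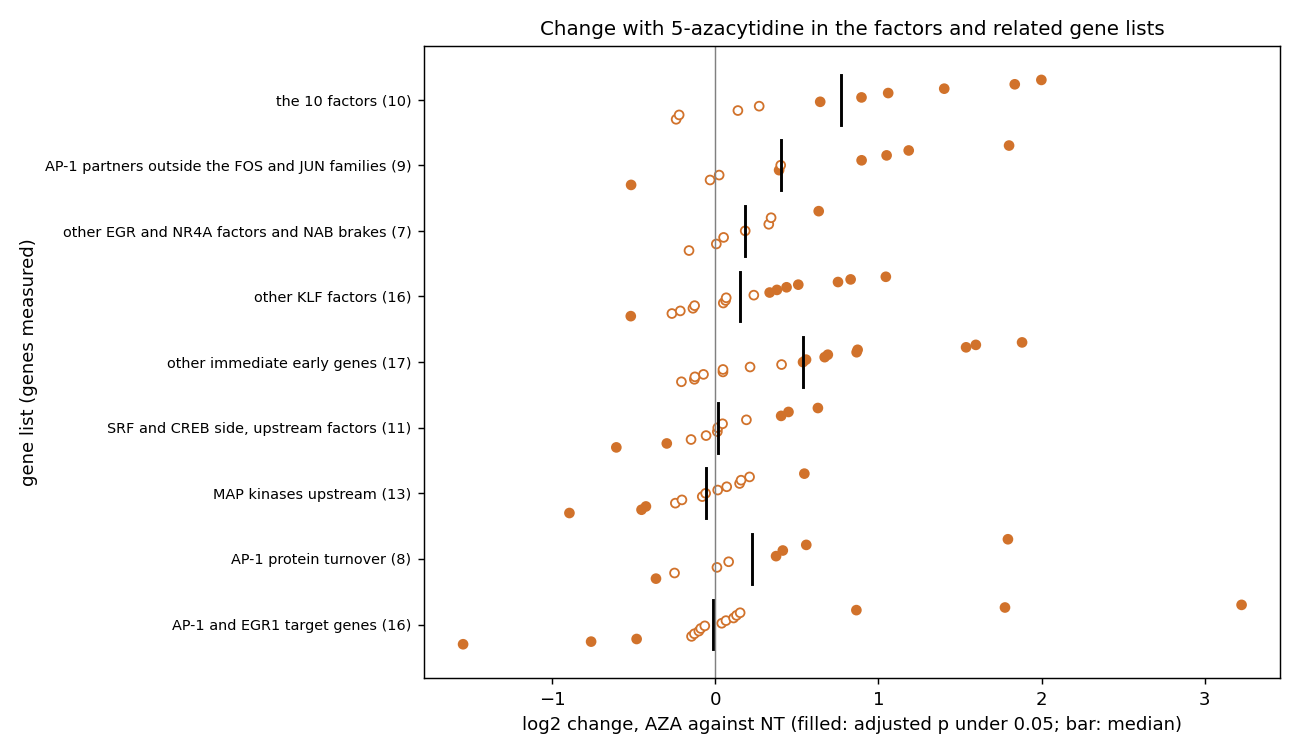
Log2 change in AZA against NT of the 10 factors and of the genes in 8 related lists (points, 1 per gene; number measured in brackets), with filled points at an adjusted p under 0.05 and a bar at each list's median. The medians are 0.77 for the 10 factors, 0.54 for other immediate early genes, 0.40 for AP-1 partners and -0.01 for AP-1 and EGR1 targets.

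Within the set, JUN, JUNB, JUND, EGR1 and KLF6 followed each other over the 12 arrays, with Pearson r from 0.942 (JUNB and EGR1) to 0.995 (JUN and KLF6). FOS followed these 5 at 0.797 to 0.865 and FOSB at 0.629 to 0.698, FOSL1 ran opposite to them at -0.845 to -0.689, and FOSL2 and IER3 lay between -0.338 and 0.456. All of these are descriptions over 12 arrays that share the split by 5-azacytidine, which makes any pair of responsive genes correlate. Among 1146 genes whose group means ranged over at least 1 log2 unit, those most like JUN were IRF1 (r = 0.997), C5AR1 (0.996) and TXNRD1 (0.996). For KLF6 they were CARS1 (0.998), TYROBP (0.997) and PKD1 (0.997). JUND was closest to SARS1 (0.997), DENND5A (0.996) and CSF2RA (0.996), and JUNB to SLC1A4 (0.993), NFE2L1 (0.992) and AARS1 (0.991).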

How the data were processed

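Expression was measured on 12 arrays, 4 groups of 3. The values deposited by the authors are log2 signals, 1 per feature and array, made with RMA (background correction, quantile normalization and probe summary), with Partek named too, per the submitters' processing notes; no version, chip definition or genome build is given in the sources used here. RMA would hide a change shared by most genes and compresses dim signals. Array medians lay between 4.69 and 4.78. Arrays have no counting depth, and their number limits the precision.

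Of 29413 rows, 28129 had 1 gene symbol in the platform annotation, 0 several and 1284 none. The brightest row per symbol was kept, which left 28125 genes, with no signal filter. limma 3.58.1 in R 4.3.3 was fitted with 1 mean per group (8 residual degrees of freedom), and the fit was tested on simulated data. The intervals are 95% confidence intervals. No pair of arrays shared more than 0.0952% of its values exactly.

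Members and lists were chosen with earlier results of these data known, and 10 list entries were not analysed here. All members are given in every comparison, some of them in APR against NT as a range. In each list the 4 called genes with the largest change are named, or, with fewer called, those and the largest changes up to 2. The rule covered every comparison, and names are given for AZA against NT. Some calls that differ in the EGR, KLF, kinase and target lists are also named for APR-AZA against APR. The genes of likest pattern were taken for the 4 members with the widest range of group means, 3 genes each. Replicate numbers did not pair the samples: over 18 same-numbered pairs of arrays from different groups, deviations from the group means correlated at -0.25 to 0.14, with 3 over 0.1. Alternatives were other variance models, groups, blocks, weights, filters, scalings, row rules and leaving out each array, and, chosen after seeing the data, each drug's change averaged over both backgrounds.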

Additional observations from a re-analysis of the deposited data

How the results depend on the processing

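JUN, JUNB, JUND, EGR1 and KLF6 kept their rise and their call in AZA against NT, APR-AZA against APR and APR-AZA against NT under each alternative run, the replicate block included. FOS lost or gained its call as given with its values. The counts of members called higher stayed within 1.5 times: leaving out 1 array gave 5 to 7 (AZA against NT), 5 to 6 (APR-AZA against NT) and 5 to 6 (APR-AZA against APR). Averaged over both backgrounds, 5-azacytidine gave 1 member called lower, against 0. With the replicate block, which does not pair these samples, FOS in APR-AZA against NT had an adjusted p of 0.0263, and no other member changed its call. The count of all genes called in APR against NT, 1, became 0 without moderation, with the compared groups alone, with the replicate block and averaged over both backgrounds, 2 without the dimmest 30%, and 0 to 2 without 1 array.

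Signs turned 46 times, in members not called in that comparison, and the cause was not tested. With array weights EGR1 stood at -0.0427 and IER3 at 0.0217 in APR against NT, FOSL2 at -0.00548 in APR-AZA against APR and IER3 at -0.0504 in non-additivity. With median centring FOSL2 stood at -0.0162 in APR-AZA against APR and FOSB at -0.00269 in non-additivity, and with repeated quantile normalization FOSB at -0.00996 there. Averaged over both backgrounds, APR-246 gave FOSL1 -0.0903, JUNB 0.00144, JUND 0.067 and EGR1 -0.0704. Leaving out 1 array gave, in APR against NT, FOS -0.301 to 0.00498, FOSB -0.292 to 0.00609, FOSL1 -0.0517 to 0.141, JUND -0.123 to 0.0304, EGR1 -0.0634 to 0.113 and IER3 -0.227 to 0.0258. In APR-AZA against NT it gave FOSB -0.0142 to 0.283 and IER3 -0.00507 to 0.192. In APR-AZA against AZA it gave FOS -0.202 to 0.0399, FOSL2 -0.118 to 0.0779 and IER3 -0.0962 to 0.0284, and in APR-AZA against APR FOSL2 -0.0915 to 0.0945. In non-additivity it gave FOS -0.123 to 0.198, FOSB -0.126 to 0.172 and IER3 -0.0651 to 0.187. Where a group was left with 2 arrays, the spread was taken from all groups.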
